A study of Bos taurus with 30 samples.

Results

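SPON1, EMILIN1 and OLFML3 are genes for proteins that cells secrete into the extracellular matrix. They were taken here as every probe carrying 1 of these symbols in the platform annotation. That gave 3 probes for 3 of the 8073 named genes on the array, 1 probe per gene, each printed as 2 adjacent spots whose values were averaged. The annotation lists SPON1 as gene 282866, EMILIN1 as gene 540451 and OLFML3 as gene 505318.

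The arrays compared RNA from the 2 regions of the uterine lining of pregnant cattle (Bos taurus). Caruncles lack glands and are where the placenta attaches, and glands lie in the intercaruncular tissue around them. The pregnancies followed artificial insemination (AI) in 5 animals and transfer of in vitro fertilised embryos (IVF-ET) in another 5. In the last 5 they came from somatic cell nuclear transfer (SCNT), that is, from cloned embryos. Each animal had 2 arrays, and each array held the caruncular and the intercaruncular RNA of that animal in different dyes. The labels give no stage of pregnancy, age or breed, so what the groups share beyond the pregnancy is not known here. The values are log ratios between the tissues, read here as log2.

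F-spondin, the product of SPON1, carries a reeler domain and thrombospondin type 1 repeats and binds the amyloid precursor protein and a lipoprotein receptor. EMILIN1 is a glycoprotein found where elastin meets microfibrils. It binds an integrin and holds back the processing of the TGF-beta1 precursor. OLFML3 is a glycoprotein with an olfactomedin domain that binds BMP4 and has been linked to the growth of blood vessels. Connective tissue cells of many organs make these proteins, and the stroma of the endometrium is rebuilt as the placenta forms.

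The side of the ratio needs care. Which tissue stands above the line is not given in the labels, so values are called positive or negative as deposited. Across all probes, which share arrays and are no replicates of each other, the group means of AI and SCNT had r = -0.291 and those of AI and IVF-ET r = -0.271, whereas IVF-ET and SCNT had r = 0.455. The AI means of SPON1, EMILIN1 and OLFML3 are therefore given as deposited and with the sign turned. Other AI values, those of single animals, markers and related genes, are given as deposited only. The values were read as ratios already turned to the tissues, which the labels do not state. Read as dye ratios, the SCNT means would be 0.23 for SPON1, 0.55 for EMILIN1 and -0.14 for OLFML3, and 0 probes would pass in SCNT animals. The directions and calls given here rest on the first reading. Calls in SCNT animals also fell to 0 when only arrays with the caruncle in Cy3 were used, and when IVF-ET replicate 3 was kept with its second array turned. IVF-ET replicate 3 had the caruncle in Cy5 on both arrays, and these correlated at r = -0.389. It is shown here but was left out of group means and tests, which leaves 14 animals. The arrays of other animals also agreed weakly over all probes, and the median r over 15 animals was 0.124. In IVF-ET replicates 1, 2, 4 and 5, r was 0.42, -0.05, -0.01 and 0.02. In AI animals r lay between 0.02 and 0.35, and in SCNT animals between 0.12 and 0.79. From 26744 to 27643 spots per array carried a value. The SD over spots was widest on the 2 arrays of SCNT replicate 5, at 0.831 and 0.734. The number of animals limits the precision.

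The genes were chosen by earlier results on these same values, among them the ratio in SCNT animals. They also count as selected on the mean over the 3 groups with the AI sign turned. There SPON1 was at -0.69 ± 0.12 (SE from limma), EMILIN1 at -0.63 ± 0.09 and OLFML3 at -0.76 ± 0.13. In that contrast 3.17% of the 13818 tested probes passed a Benjamini-Hochberg adjusted p of 0.05, 1.58% on each side. The named genes nearest to the threshold on that side were TUBA1A (-0.32) inside it and OGN (-0.25) outside it. The ratio within each group, and the difference of AI from the others, enter that contrast. They are therefore described without a test. As deposited, the means over the 3 groups were -0.56, -0.34 and -0.53 in the same order.

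SPON1 lay on the negative side on 10 of 10 SCNT arrays, between -1.54 and -0.01. The animal values of SCNT replicates 1 to 5 were -1.02, -1.11, -0.66, -1.44 and -0.49. The mean was -0.94 ± 0.38 (SD, n = 5), a 1.92-fold ratio between the tissues. Replicate 4 was lowest and replicate 5 nearest to 0. On the wide arrays of replicate 5 the value lay at percentile 18.5 of all probes, whereas in the other SCNT animals it lay at or below percentile 1.22.

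In IVF-ET animals SPON1 was at -1.28, -1.11, -0.75 and -0.62 in replicates 1, 2, 4 and 5. The mean was -0.94 ± 0.31 (SD, n = 4), again 1.92-fold between the tissues. All 4 animals lay below 0, and the ranges of IVF-ET and SCNT overlapped over most of their length. SPON1 stood at rank 13 of the 13818 tested probes, counted from the most negative IVF-ET mean. OLFML3 stood at rank 26 and EMILIN1 at rank 52. The IVF-ET mean enters the contrast on which the genes count as selected, so nothing is read from these ranks. In AI animals SPON1 was at -0.93, 0.46, 0.42, 0.89 and 0.09, with a mean of 0.19 ± 0.69 (SD, n = 5), or -0.19 with the sign turned. Without AI replicate 1 the mean was 0.47, and without replicate 4 it was 0.01. Replicate 1 lay with the SCNT and IVF-ET animals and the other 4 lay above 0.

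EMILIN1 was negative in 5 of 5 SCNT animals, at -1.36, -1.07, -0.59, -0.62 and -0.86. The mean was -0.90 ± 0.32 (SD, n = 5), a 1.87-fold ratio. Fewer measurements stood behind 2 of these animals than behind the others. The first array of replicate 2 had no value, so that animal rests on 1 array, which was at -1.32 before the dye effect was taken off. The first array of replicate 5 kept 1 of its spots, at a value of 0.57, against -2.28 on the second array. The value of replicate 5 is thus a mean of opposed arrays, the only SCNT animal in which any of the 3 genes had arrays on opposite sides.

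In IVF-ET animals EMILIN1 was at -0.87, -0.76, -0.07 and -0.54 in replicates 1, 2, 4 and 5, with a mean of -0.56 ± 0.35 (SD, n = 4) and a 1.48-fold ratio. Replicate 4 lay close to 0, with arrays at -0.28 and 0.14. In AI animals the gene was at 0.06, 0.64, 0.82, 0.74 and -0.07, with a mean of 0.44 ± 0.41 (SD, n = 5), or -0.44 with the sign turned. The AI animals nearest to 0 were replicates 1 and 5, whose arrays opposed each other (-0.84 and 0.96, and -0.63 and 0.49). The lowest AI value and the highest IVF-ET value were both -0.07, so these groups met without overlapping.

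OLFML3 was negative on 10 of 10 SCNT arrays, between -2.18 and -0.42. Replicates 1 to 5 were at -1.36, -0.91, -1.14, -0.43 and -2.18. The mean was -1.20 ± 0.64 (SD, n = 5), a 2.3-fold ratio. The arrays of replicate 5 differed by 0.00 and gave the lowest value of any of the 3 genes in any animal. That ratio was 4.52-fold, at percentile 2.03 of all probes on those wide arrays.

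In IVF-ET animals OLFML3 was at -0.90, -0.68, -0.47 and -0.88 in replicates 1, 2, 4 and 5. The mean was -0.73 ± 0.20 (SD, n = 4), a 1.66-fold ratio, and these animals were the closest together of any group for the 3 genes. In AI animals it was at -0.38, 0.99, 0.68, 0.75 and -0.33, with a mean of 0.34 ± 0.65 (SD, n = 5), or -0.34 with the sign turned. Replicates 2, 3 and 4 lay above 0 and replicates 1 and 5 below it. As deposited, every SCNT and IVF-ET animal lay below every AI animal for OLFML3 and for EMILIN1, while AI replicate 1 made SPON1 overlap. The same held for 0.499% of all tested probes, and nothing is read from it, since the difference from AI was used to choose the genes.

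**Figure D1:**
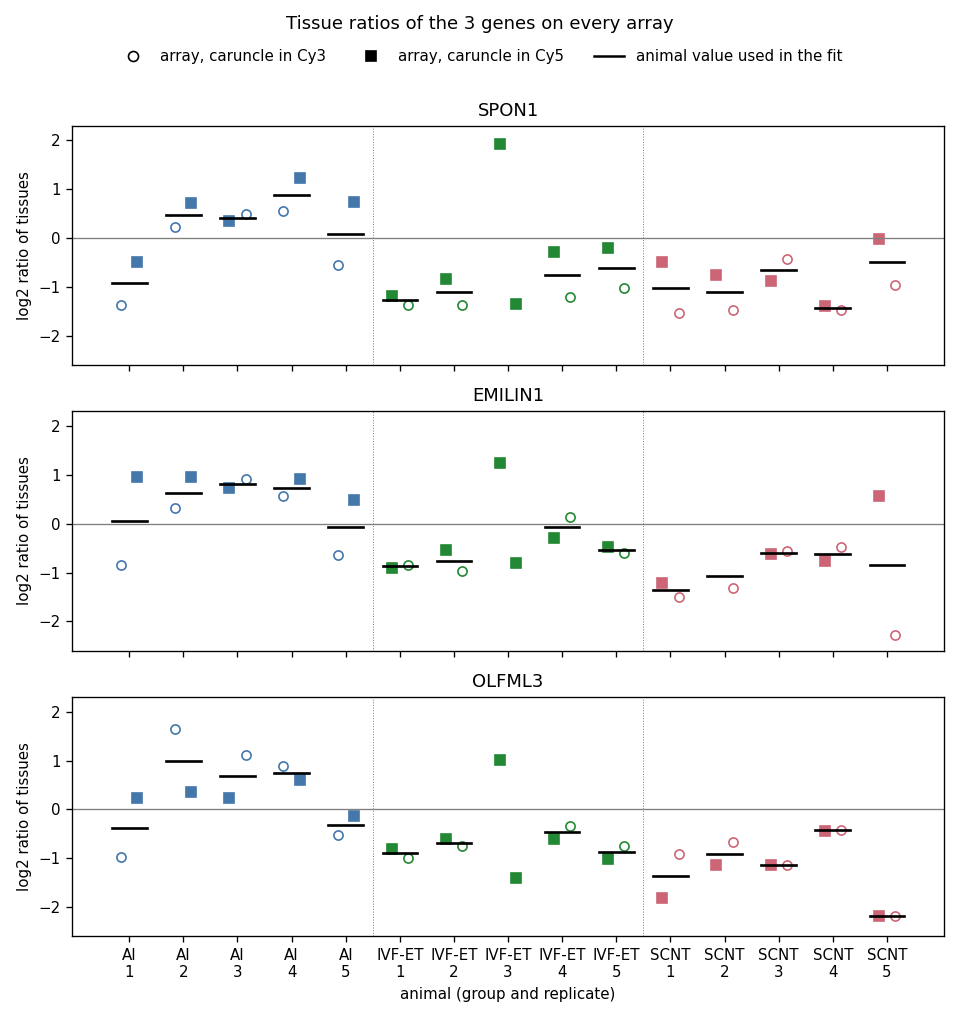
The log2 tissue ratio of SPON1, EMILIN1 and OLFML3 (vertical axis) is plotted for each array of each animal (horizontal axis), with open circles for arrays with the caruncle in Cy3, filled squares for the caruncle in Cy5 and a black bar for the animal value. SPON1 and OLFML3 lie below 0 on 10 of 10 SCNT arrays each, and the arrays of IVF-ET replicate 3 lie far apart for all 3 genes.

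The order of the groups, from positive to negative, was AI, IVF-ET and SCNT for all 3 genes as deposited. For SPON1, IVF-ET and SCNT were level. For EMILIN1 and OLFML3 the ranges of these neighbours overlapped. All 4 IVF-ET and all 5 SCNT animals lay below 0 for each of the 3 genes. This held for 2.1% of tested probes, and for 11% in IVF-ET and 6.96% in SCNT alone, and again it describes what the genes were chosen for.

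SCNT and IVF-ET pregnancies were then compared with each other. That difference was not itself used to choose the genes, but the ratios that enter it were. Choosing genes with low SCNT ratios can push it to the negative side, so it is not free of the choice. The comparison asks whether the embryo's origin, cloned or fertilised in vitro, goes with another ratio between the regions. SPON1 differed by -0.01 (SCNT minus IVF-ET), with a 95% interval from -0.62 to 0.61 (limma adjusted p = 0.999, exact two-sided permutation p = 1). EMILIN1 was lower in SCNT by -0.34, with an interval from -0.81 to 0.13 (limma adjusted p = 0.915, exact permutation p = 0.190). OLFML3 was lower by -0.47, with an interval from -1.16 to 0.22 (limma adjusted p = 0.915, exact permutation p = 0.190). None of the 3 differences passed either test, and the smallest p that 5 animals against 4 allow is 0.0159. Single animals moved these differences. That of OLFML3 was -0.23 without SCNT replicate 5, and that of EMILIN1 was -0.17 without IVF-ET replicate 4 and -0.22 without SCNT replicate 1. That of SPON1 ranged from -0.12 (without SCNT replicate 5) to 0.12 (without SCNT replicate 4) and had no stable sign. The intervals all hold 0. They reach past a log2 difference of 0.6 on both sides for SPON1, and on the negative side only for EMILIN1 and OLFML3. A SCNT ratio lower by that much was therefore not excluded for any of the 3. With limma 0 of 13818 probes passed in this comparison (0%), and 609 (4.41%) had an unadjusted p under 0.05.

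The arrays of an animal repeat the measurement with the dyes exchanged, and the genes differed in how well these repeats agreed. For SPON1 the array with the caruncle in Cy5 gave the higher value in 12 of 14 animals. SCNT arrays averaged -1.18 ± 0.48 (SD, n = 5 arrays) with the caruncle in Cy3 and -0.71 ± 0.51 with it in Cy5, and IVF-ET arrays -1.24 ± 0.16 and -0.63 ± 0.46 (n = 4 arrays each). Taken over animals, the dye effect of SPON1 was 0.29, at percentile 96.1 of all tested probes. That of EMILIN1 was 0.25 (higher with Cy5 in 8 of 13 animals), and that of OLFML3 was -0.09 (5 of 14 animals). The widest gap behind the EMILIN1 effect, 2.85 in SCNT replicate 5 with the dye effect still on, involved an array with 1 spot. The dye effect was taken off before the tests, and each of the 3 genes had a negative mean in both orientations, in SCNT and in IVF-ET.

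With the dye effect off, the gap between the arrays of an animal had a median of 0.36 for SPON1, 0.58 for EMILIN1 and 0.31 for OLFML3, against 0.29 for the median probe. Among the 14 animals of the fit the largest gap, 2.34, was that of EMILIN1 in SCNT replicate 5. Adjacent spots agreed more closely, with median differences of 0.10 (SPON1), 0.09 (EMILIN1) and 0.15 (OLFML3). The largest difference between spots, 0.98, was that of OLFML3 on the first array of SCNT replicate 4. The spread between animals of the 3 genes was wider than that of the median probe in each group, at SDs of 0.32 to 0.64 in SCNT against 0.23.

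The 3 genes mostly stood on 1 side together, which their choice on these same values favours. On the 29 arrays with a value for each, all 3 were negative on 18, all 3 positive on 7 and mixed on 4. All 3 were negative on 8 of 9 SCNT, 8 of 10 IVF-ET and 2 of 10 AI arrays, and positive on 0, 1 and 6. These counts were not set beside those of other probes, and nothing is read from them. The clearest case is IVF-ET replicate 3, which was outside the fit. Its first array held SPON1 at 1.93, EMILIN1 at 1.25 and OLFML3 at 1.01, and its second held them at -1.34, -0.81 and -1.41. Over all probes the first array had r = -0.525 with the IVF-ET profile and -0.296 with the SCNT profile, and the second 0.373 and 0.439. The 3 genes thus changed sign along with the whole profile, between arrays labelled with the same dye orientation. AI replicate 1 was of this kind in part: its first array held -1.37, -0.84 and -0.98, and its second -0.49, 0.96 and 0.23. That first array correlated at r = 0.439 with the SCNT profile over all probes, the highest of the 10 AI arrays.

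Markers of the cell types in the tissue were set beside the genes, since more stromal cells and more RNA per stromal cell cannot be told apart in whole tissue. In SCNT animals 4 of 8 measured stromal fibroblast markers passed limma's adjusted p of 0.05, all on the negative side. In that comparison 1.85% of tested probes passed, 1.06% with negative and 0.789% with positive values. They were the collagen chains COL3A1 (-1.70 ± 1.25, SD, n = 5), COL1A2 (-0.85 ± 0.71) and COL1A1 (-0.85 ± 0.45) and the surface glycoprotein THY1 (-0.97 ± 0.72). The proteoglycan DCN (-0.89 ± 0.83) did not pass, and VIM (-0.05 ± 0.34) and POSTN (-0.16 ± 0.18) were near 0. The list median, taken over the 8 gene means in SCNT animals, was -0.85, against -0.01 over all genes. The stromal medians of single SCNT animals, given below, were all less negative. The count was 0 without SCNT replicate 1 and 2 without replicate 3 or replicate 4. PDGFRA, PDGFRB, FAP and TCF21 had no measured probe.

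By animal, the median of the stromal markers lay between -0.79 and -0.35 in SCNT, between -0.76 and -0.19 in IVF-ET and between -0.08 and 0.43 in AI animals. The median of the 8 measured epithelial markers, keratins and junction proteins among them, lay between 0.30 and 0.80 in IVF-ET, between -0.33 and 0.49 in SCNT and between -0.55 and 0.17 in AI animals. In SCNT animals none of them passed. CDH1 was at 0.78 ± 0.51 and KRT8 at 0.38 ± 0.27, while KRT19 was at -0.29 ± 0.62, negative in 4 of 5 animals. The animal with the lowest OLFML3, SCNT replicate 5, also had the lowest epithelial median of that group, at -0.33. In AI replicate 1 the stromal median was 0.43 while SPON1 was at -0.93 and OLFML3 at -0.38. The part of these markers in the ratios of the 3 genes was not tested.

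Endothelial markers (7 of 8 measured) had medians between -0.14 and 0.24 in SCNT and between 0.01 and 0.21 in IVF-ET animals. Leukocyte markers (7 of 8 measured) lay between 0.03 and 0.13 in SCNT and between -0.13 and 0.17 in IVF-ET. Smooth muscle markers (6 of 7 measured) lay between -0.23 and 0.22 in SCNT and between -0.36 and 0.11 in IVF-ET. They reached 0.78 in AI animals, where TAGLN averaged 0.53 ± 0.61 (SD, n = 5). No marker of these 3 lists passed in SCNT animals. The levels of markers are not known from ratios.

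**Figure D2:**
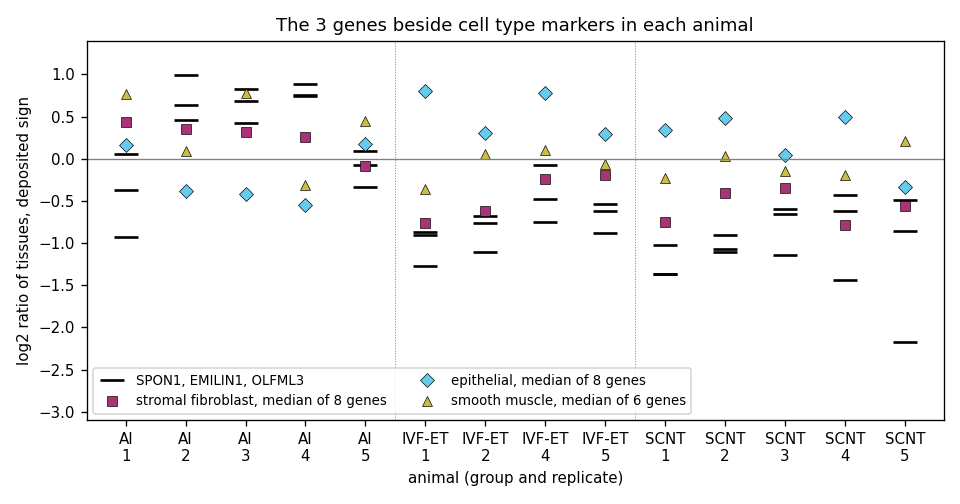
For each of the 14 animals in the fit (horizontal axis) the black bars are the log2 tissue ratios of SPON1, EMILIN1 and OLFML3, and the symbols are the medians of the stromal fibroblast, epithelial and smooth muscle markers. In the SCNT and IVF-ET animals the stromal medians are below 0, as are the 3 genes, and in AI replicate 1 the genes lie below the stromal median of 0.43.

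In SCNT animals 1.85% of all tested probes passed, 1.06% with negative values. Among genes of elastic fibres and microfibrils, where EMILIN1 is placed, 2 of 20 measured passed in these animals. These were the microfibril glycoprotein MFAP2 (-0.97 ± 0.44, SD, n = 5) and LOXL3, an enzyme that cross-links elastin and collagen (-0.40 ± 0.22). Both were negative in 5 of 5 SCNT and 4 of 4 IVF-ET animals, where MFAP2 was at -0.62 ± 0.14 and LOXL3 at -0.15 ± 0.09. LOXL2 (-0.52 ± 0.26) and MFAP4 (-0.49 ± 0.32) did not pass. Elastin itself (ELN) was at -0.39 ± 0.91 and the main fibrillin FBN1 at -0.09 ± 0.17, and neither passed. The list median was -0.15. Without SCNT replicate 1 the count was 0, and without any other SCNT animal it was 1.

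EMILIN2, a relative of EMILIN1, was at -0.51 ± 0.34 in SCNT animals, negative in 5 of 5, and did not pass (limma adjusted p = 0.0592). It was at -0.14 ± 0.24 in IVF-ET and 0.27 ± 0.33 in AI animals. EMILIN3 (0.05 ± 0.13) and the vascular relative MMRN2 (0.03 ± 0.24) were near 0 in SCNT, as were the integrin chains ITGA4 (0.06 ± 0.07), ITGA9 (0.05 ± 0.31) and ITGB1 (0.03 ± 0.46), through which cells bind EMILIN1. None of these 6 genes passed in SCNT animals.

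TGFB1, whose precursor EMILIN1 acts on, was at -0.09 ± 0.16 in SCNT and 0.03 ± 0.13 in IVF-ET animals, and FURIN, a protease that cleaves its precursor, at 0.05 ± 0.42 and 0.21 ± 0.21. BMP4, the partner of OLFML3, was at -0.49 ± 0.43 in SCNT and -0.30 ± 0.18 in IVF-ET animals, negative in 5 of 5 and 4 of 4. It did not pass (limma adjusted p = 0.142). Of 23 measured genes of the TGF-beta and BMP pathways, 1 passed in SCNT animals, against 1.85% of all tested probes. It was the activin-binding protein FST (-1.08 ± 0.34), and its call was lost without SCNT replicate 1, 2, 3 or 4. The list median was -0.07.

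Proteins with thrombospondin repeats, the family of SPON1, were measured by 13 other genes. Of these 1 passed in SCNT animals, on the positive side, where 0.789% of all tested probes passed. It was CCN2, a matricellular growth factor (1.18 ± 0.34, SD, n = 5). SPON2, which shares the spondin name, was at -0.53 ± 0.80 and THBS2 at -0.35 ± 0.30. The list median was -0.04. Of the proteins known to bind F-spondin or related to them, the array measured APLP1 (-0.01 ± 0.04), APLP2 (-0.18 ± 1.12) and LRP4 (0.08 ± 0.22), and none passed. Of 12 other olfactomedin proteins it measured MYOC (0.08 ± 0.08), ADGRL2 (-0.24 ± 0.25) and ADGRL3 (-0.10 ± 0.16), and none passed either.

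In IVF-ET animals 0 of 13818 probes passed limma's adjusted p of 0.05 (0%), against 1097 (7.94%) at an unadjusted p of 0.05. In AI animals 0 passed (0%), against 609 (4.41%). No gene of these lists was therefore called in either group.

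**Figure D3:**
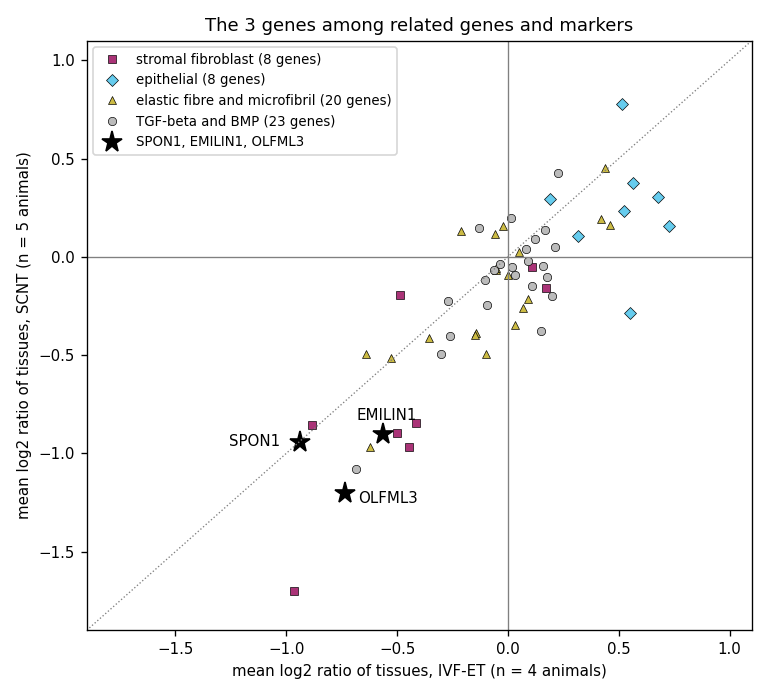
Each symbol is a gene, placed by its mean log2 tissue ratio in IVF-ET (horizontal axis, n = 4) and SCNT animals (vertical axis, n = 5), with stars for SPON1, EMILIN1 and OLFML3 and a dotted line where the groups are equal. SPON1 lies close to the line at -0.94 and -0.94, and OLFML3 lies below it at -0.73 and -1.20.

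The genes whose pattern was most like each of the 3 were found by Pearson's r over the 14 animals, among 8070 other genes. The animals fall into groups that differ, so r of the deviations from the group means is given beside it, and all values of an animal share its arrays. AI values entered as deposited, and the order of genes with the AI sign turned was not computed. The group differences that chose the 3 genes also enter r over the 14 animals. SPON1 was most like the WNT inhibitor SFRP1 (r = 0.942, and 0.860 within groups), FAM13B (0.930 and 0.853) and the gap junction protein GJA1 (0.929 and 0.820). The cohesin regulator PDS5B and the growth factor PTN followed (r = 0.917 and 0.901). SFRP1 was at -1.32 ± 0.34 in SCNT, -1.10 ± 0.31 in IVF-ET and 0.51 ± 0.91 in AI animals.

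EMILIN1 was most like the sialyltransferase ST6GALNAC6 (r = 0.954, and 0.803 within groups), monoamine oxidase MAOB (0.933 and 0.759) and the secreted ANGPTL2 (0.925 and 0.71). The imprinted RNA H19 and the matricellular SMOC2 followed (r = 0.923 and 0.921). The ratios of ST6GALNAC6 were smaller than those of EMILIN1, at -0.36 ± 0.04 in SCNT and -0.21 ± 0.18 in IVF-ET animals. OLFML3 was most like PTK7, a receptor of the planar cell polarity pathway (r = 0.964, and 0.939 within groups), CCDC8 (0.925 and 0.835) and the basement membrane collagen COL18A1 (0.921 and 0.858). MFAP2 and H19 followed (r = 0.913 and 0.909). PTK7 was at -1.03 ± 0.63 in SCNT, -0.47 ± 0.27 in IVF-ET and 0.13 ± 0.39 in AI animals. H19 was the gene that came in the first 5 for more than 1 of the 3, at -2.47 ± 0.78 in SCNT and -1.10 ± 0.35 in IVF-ET animals.

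The 3 genes were less like each other than like these. EMILIN1 and OLFML3 had r = 0.878 over the 14 animals and 0.611 within groups. SPON1 and EMILIN1 had r = 0.828 and 0.547, and SPON1 and OLFML3 r = 0.673 and 0.20. Among all genes OLFML3 stood at rank 218 of 8072 for likeness to SPON1, and EMILIN1 at rank 37. SCNT replicates 4 and 5 were the animals in which SPON1 and OLFML3 parted most. Replicate 4 had the lowest SPON1 of its group (-1.44) and the highest OLFML3 (-0.43), and replicate 5 the highest SPON1 (-0.49) and the lowest OLFML3 (-2.18).

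**Figure D4:**
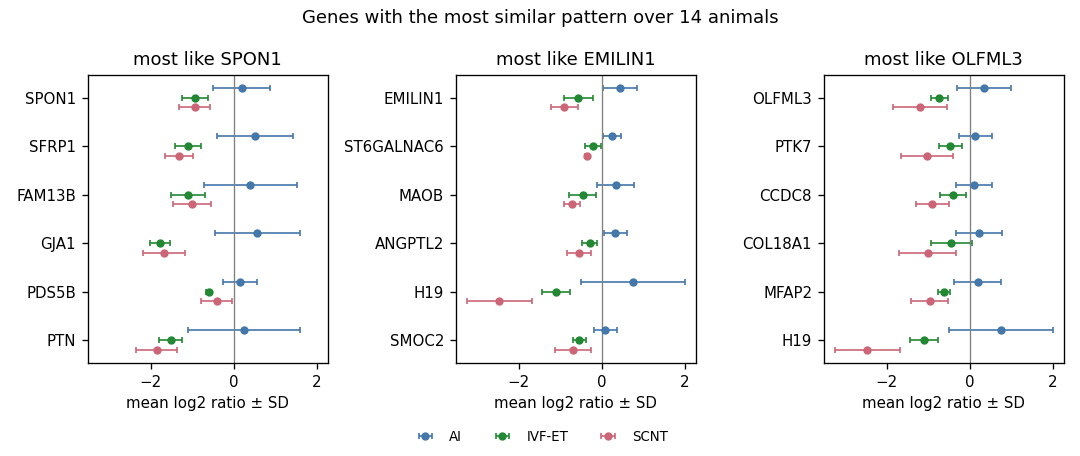
For SPON1, EMILIN1 and OLFML3 each panel plots the mean log2 tissue ratio with its SD (horizontal axis) in AI, IVF-ET and SCNT animals, for the gene itself and for the 5 genes most like it over 14 animals. In every panel the SCNT and IVF-ET means lie below 0 and the AI means above 0 as deposited, with H19 reaching -2.47 in SCNT.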

How the data were processed

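The members and gene lists were chosen with earlier results of these data known. Per the labels, aminoallyl cDNA of the 2 tissues was coupled to Cy3 or Cy5, with the dyes exchanged between the arrays of 14 of 15 animals. The authors deposited normalised log ratios of the channels, read here as log2. Normalization method, log base and channel order are not given in the sources used here. Each array was centred on its median and 2 adjacent spots were averaged, giving 13824 probes. Each probe's dye effect was subtracted, then both arrays of an animal were averaged. limma 3.58.1 (R 4.3.3) fitted a mean per group on 28 arrays of 14 animals, for 13818 probes with values in at least 4 AI, 3 IVF-ET and 4 SCNT animals, with Benjamini-Hochberg adjustment over all of them. It was tested on simulated data, drawn independently for each probe and animal. That test therefore does not cover values that share an array. Exact permutation tests used scipy 1.17.1.

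The values were read as tissue ratios, as in the earlier analysis: the deviations of an animal's arrays from the mean of their orientation had a median correlation of 0.00871, which does not settle it. Between neighbouring probes r was 0.476 for the dye effect, taken over animals of all groups. It was 0.0474 for the tissue ratio, taken as the mean of the IVF-ET and SCNT group means without AI. Besides the 3 genes, the text names the 5 genes most like each and, from each list, up to 3 genes with the largest SCNT ratio and any that passed; VIM, POSTN, ELN, FBN1, TGFB1, FURIN, BMP4, KRT8 and KRT19, the relatives and the integrins were named for their role or after their values were seen. Of several probes of a gene, the one with most values was used. Sequences and coordinates were not used here.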

Additional observations from a re-analysis of the deposited data

Results flagged for a closer look

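The median of the elastic fibre and microfibril genes was -0.17 in IVF-ET replicate 1, far from the other IVF-ET animals, which lay between -0.02 and -0.01. In that animal SPON1 (-1.28), EMILIN1 (-0.87), OLFML3 (-0.90) and the stromal median (-0.76) were also lowest of the group. Of 42 groups of animals looked at in this way, 1 held such a value, and chance gives about 1 in 20.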

How the results depend on the processing

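Read as dye ratios, SPON1 went to 0.23 in SCNT and 0.31 in IVF-ET, EMILIN1 to 0.55 and 0.00841, and OLFML3 to -0.14 and -0.0243, with -0.0858 in AI, and the EMILIN1 difference (SCNT minus IVF-ET) to 0.54. Probes passing were then 348 in AI, 1 in IVF-ET, 0 in SCNT, 2130 in the mean as deposited and 0 with the AI sign turned. The cause was not tested. If IVF-ET replicate 3 entered with array 2 turned, SPON1 and OLFML3 were at -0.42 and -0.35 in IVF-ET, and 0 probes passed in SCNT and in the AI-turned mean; with array 1 turned, 79 passed in IVF-ET, 82 as deposited and 718 AI-turned, and the SPON1 difference was 0.13. That difference was also above 0 with the first spots (0.0194) and with the caruncle in Cy3 (0.0666), and the EMILIN1 difference with the caruncle in Cy5 (0.0467). Arrays with the caruncle in Cy3 gave 0 probes in SCNT and 0 AI-turned; those in Cy5 gave 100, 209, 2 in IVF-ET and 1 as deposited. IVF-ET and SCNT fitted alone gave 19 in IVF-ET. Scaled arrays gave 19 as deposited, the print-order correction 1 and first spots 7. No setting brought a difference between SCNT and IVF-ET past the threshold.

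Leaving out 1 animal at a time, SPON1 ranged from -1.06 to -0.82 in SCNT, -1.04 to -0.82 in IVF-ET and 0.01 to 0.47 in AI, EMILIN1 from -0.97 to -0.78, -0.72 to -0.46 and 0.34 to 0.57, and OLFML3 from -1.40 to -0.96, -0.82 to -0.68 and 0.18 to 0.52. The differences ranged from -0.12 to 0.12, -0.44 to -0.17 and -0.66 to -0.23. Probes passing ranged from 42 (without SCNT replicate 1, and 97, 105 and 167 without replicates 2, 3 and 4) to 325 in SCNT, 0 to 21 (without SCNT replicate 5; 10 and 1 without AI replicates 1 and 5) in IVF-ET, 0 to 78 (without SCNT replicate 5; 31 without AI replicate 4) as deposited and 167 (without IVF-ET replicate 1; 289, 264 and 251 without IVF-ET replicate 2 and AI replicates 3 and 4) to 733 (without SCNT replicate 5) AI-turned. List genes passing in SCNT, an alternative chosen after seeing the data, ranged from 0 to 3 (stromal), 0 to 1 (elastic fibre) and 0 to 1 (TGF-beta and BMP). No paired analysis was possible because replicate numbers name different animals in each group. Signal over background is not known.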
